A study of Mus musculus with 6 samples.

Results

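The TNF superfamily ligands are trimeric cytokines that cells display on their surface or release, and that act on TNF receptor family members of neighbouring cells. The 10 ligand genes described here were chosen by name (Tnf, Lta, Ltb, Tnfsf4, Tnfsf9, Tnfsf10, Tnfsf12, Tnfsf13, Tnfsf13b and Tnfsf14), out of 56748 Ensembl gene IDs with deposited counts. All 10 had at least 50 counts over the 6 libraries and were among the 21849 genes tested. The libraries came from polyadenylated RNA of mouse bone marrow-derived dendritic cells (BMDCs), 3 from WT C57BL/6 mice and 3 from global Nfkb2-/- mice. Bone marrow cells of both genotypes were kept for 5 days in 20 ng/mL GM-CSF and then for 4 days in 20 ng/mL GM-CSF with 10 ng/mL IL-4, and received no further stimulus. A global knockout lacks the gene in the marrow precursors as well as in the BMDCs grown from them. The labels give neither the age of the mice nor whether the 3 libraries of a genotype came from separate mice, so that the p-values measure the spread between these libraries.

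Dendritic cells use these ligands to speak to T cells, B cells and stromal cells. Nfkb2 encodes p100, which the noncanonical NF-κB pathway processes into p52. Ligands of this family, lymphotoxin and BAFF among them, are the classical triggers of that pathway, so that the family stands upstream of Nfkb2 as well as among NF-κB target genes. The comparison asked which ligand mRNAs differed between unstimulated WT and Nfkb2-/- BMDCs.

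Total counts ranged from 29863927 to 55623068 per library, so that 1 count was worth 0.018 to 0.0335 CPM, the counts scaled to library size. Nfkb2 itself measured 154 to 355 CPM in WT and 32.3 to 44.8 CPM in Nfkb2-/- libraries. The libraries did not all group by genotype. Across genes, as a description, log2 CPM correlated at 0.964 between WT replicates 2 and 3, but at 0.983 and 0.984 between WT replicate 2 and Nfkb2-/- replicates 2 and 3. Counts were spread over 47952 genes in Nfkb2-/- replicate 1 and over 27692 to 33841 in the other libraries. Defining dendritic cell genes were present in every library, with H2-Aa between 1131 and 2058 CPM. Zbtb46, named after its values were seen, measured 168, 151 and 218 CPM in WT and 115, 136 and 119 CPM in Nfkb2-/- libraries. Its Nfkb2-/- values were all below the WT values (log2 fold change -0.54, adjusted p = 0.192 from edgeR). Of the 9 genes on that marker list 1 passed the test, Itgax, which encodes CD11c (log2 fold change 1.99 with a standard error, SE, of 0.30, adjusted p = 0.0414 from edgeR). The log2 fold change was above 0 for 5 of the 9 and below 0 for 4. Macrophage markers were present too. The summed level of 7 of them was 642, 717 and 122.6 CPM in WT replicates 1 to 3, and thus lowest in WT replicate 3. In Nfkb2-/- replicates 1 to 3 the sum was 468.5, 458 and 550 CPM. Neutrophil markers summed to 65.1 to 140 CPM, and mast cell and basophil markers, of which Cpa3 was called as lower in Nfkb2-/- BMDCs (adjusted p = 0.0413 from edgeR), to 44.6 to 54.0 CPM.

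Of the 10 ligands, 1 was differentially expressed (adjusted p-value under 0.05 and fold change over 1.2), which was Ltb, higher in Nfkb2-/- BMDCs. Among all genes tested 1.14% were called, 0.453% as higher and 0.682% as lower. The 3 Nfkb2-/- values lay above all 3 WT values for Tnf, Lta, Ltb and Tnfsf10, and below them for Tnfsf4, which makes 5 of 10 ligands without overlap, against 24.7% of all genes tested. Those 5 had an unadjusted p-value under 0.05, as did 3730 of the 21849 genes tested. DESeq2 called 4 of the 10, Tnf, Lta, Ltb and Tnfsf4, and 8.6% of all genes. For Tnfsf9, Tnfsf12, Tnfsf13, Tnfsf13b and Tnfsf14 the libraries overlapped. The log2 fold change was above 0 for 7 ligands and below 0 for 3, with a median of 0.278 over the ligands and 0.076 over all genes tested. An exact permutation test (two-sided) of 3 libraries against 3 cannot give less than 0.1, the value of those 5 ligands, and gave 0.5 to 1.0 for the rest.

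**Figure D1:**
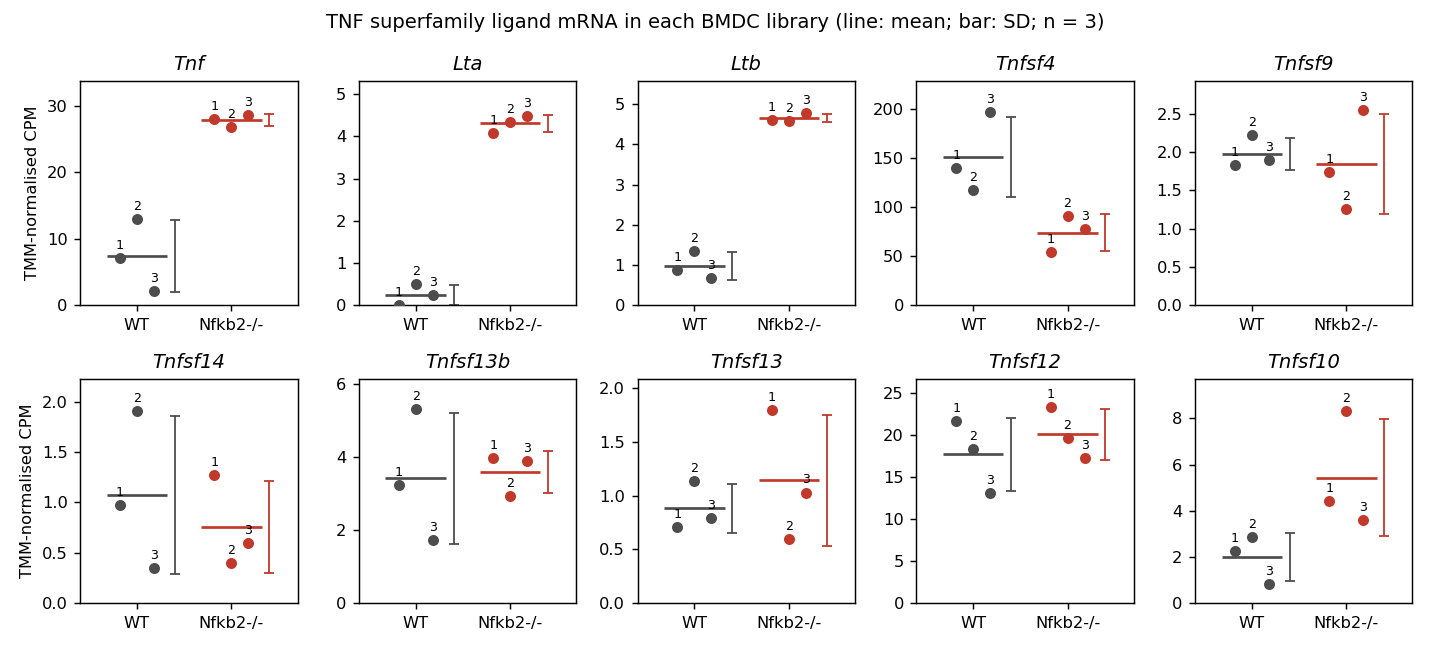
Each panel plots the TMM-normalised CPM of 1 ligand gene on a linear axis from 0, with points for WT replicates 1 to 3 (grey) and Nfkb2-/- replicates 1 to 3 (red), a line at the mean and a bar for the SD (n = 3). The 3 Nfkb2-/- libraries sit close together and above WT for Tnf, Lta and Ltb. With a wider spread they lie above WT for Tnfsf10 and below WT for Tnfsf4. They overlap the WT libraries for Tnfsf9, Tnfsf14, Tnfsf13b, Tnfsf13 and Tnfsf12.

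Tnf, Lta and Ltb are neighbours on chromosome 17. Tnf encodes the inflammatory cytokine TNF. Lta encodes lymphotoxin α, which is secreted as a homotrimer that binds the TNF receptors, or joins with lymphotoxin β, the product of Ltb, in a membrane heterotrimer that binds the lymphotoxin β receptor. In GENCODE M21 (GRCm38), Ltb (ENSMUSG00000024399) occupies chr17:35194439-35196320 on the plus strand, Tnf (ENSMUSG00000024401) chr17:35199381-35202007 on the minus strand and Lta (ENSMUSG00000024402) chr17:35203165-35205351 on the minus strand. Between Tnf and Lta lie 1157 bases, and between Ltb and Tnf 3060 bases. The bases before the annotated starts of these 3 genes are printed because they are the ligands with the largest differences. They are RefSeq promoter sequences (GRCm38.p6), 5′ to 3′ on the strand of each gene, cut where the GENCODE gene begins. Capitals mark a match to the κB consensus, the decamer bound by NF-κB dimers.

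Tnf, chr17:35202008-35202257, minus strand: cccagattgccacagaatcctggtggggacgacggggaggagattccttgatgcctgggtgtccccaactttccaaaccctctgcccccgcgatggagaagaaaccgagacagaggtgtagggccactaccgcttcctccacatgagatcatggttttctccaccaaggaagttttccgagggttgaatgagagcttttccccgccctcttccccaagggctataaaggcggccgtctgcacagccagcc
Lta, chr17:35205352-35205601, minus strand: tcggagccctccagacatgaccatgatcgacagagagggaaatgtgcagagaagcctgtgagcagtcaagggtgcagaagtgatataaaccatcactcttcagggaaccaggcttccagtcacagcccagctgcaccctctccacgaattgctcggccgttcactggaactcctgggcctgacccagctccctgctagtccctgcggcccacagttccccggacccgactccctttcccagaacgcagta
Ltb, chr17:35194257-35194438, plus strand: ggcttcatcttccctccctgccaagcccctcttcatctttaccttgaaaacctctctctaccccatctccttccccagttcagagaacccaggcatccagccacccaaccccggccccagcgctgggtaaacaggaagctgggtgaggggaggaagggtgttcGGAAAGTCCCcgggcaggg

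RefSeq promoters were found for 7 of the 10 ligands, all but Tnfsf4, Tnfsf9 and Tnfsf12. A search of the 250 bases before each RefSeq start, on both strands, found the κB consensus in 1 of these 7 genes, Ltb. It was found in 4.46% of all 27025 genes with a promoter, and in 3.9% of all 32851 promoters. The Ltb match, GGGACTTTCC on the strand opposite to the gene, spans bases -87 to -78 counted from the RefSeq start. A match describes letters only, and no binding was measured in these libraries.

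Ltb measured 0.878, 1.35 and 0.688 CPM in WT replicates 1 to 3 and 4.61, 4.58 and 4.77 CPM in Nfkb2-/- replicates 1 to 3. The Nfkb2-/- libraries were nearly equal, and each was above every WT library. Ltb rose 4.78-fold, with 0.973 ± 0.343 CPM (SD, n = 3) in WT and 4.65 ± 0.102 CPM (SD, n = 3) in Nfkb2-/- BMDCs. By edgeR's quasi-likelihood test, used for every adjusted p unless another tool is named, this was a log2 fold change of 2.25 (SE 0.31, adjusted p = 0.0332). These levels rest on 20 to 44 counts in WT and 139 to 255 counts in Nfkb2-/- libraries. The call was lost without any 1 of WT replicate 1 and Nfkb2-/- replicates 1, 2 and 3, with adjusted p-values of 0.171, 0.088, 0.186 and 0.166, fits in which edgeR called no gene at all while 2325 to 4088 genes had an unadjusted p-value under 0.05. With the replicate number as a block the adjusted p of Ltb was 0.0679.

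Lta had 0, 16 and 7 counts in WT replicates 1 to 3 and 138, 132 and 240 counts in Nfkb2-/- replicates 1 to 3. This corresponds to 0, 0.492 and 0.241 CPM in WT and 4.08, 4.35 and 4.49 CPM in Nfkb2-/- BMDCs. The WT mean of 0.244 ± 0.246 CPM (SD, n = 3) was close to the floor, since 3 counts amount to 0.0712 to 0.103 CPM in these libraries. The Nfkb2-/- mean was 4.31 ± 0.210 CPM (SD, n = 3), or 17.6 times the WT mean. Its log2 fold change of 4.17 was the largest of the 10 ligands (standard error 0.87), but did not pass the test (adjusted p = 0.0746). Lta reached 50 counts only through the Nfkb2-/- libraries, where it was high.

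Tnf measured 7.14, 13.0 and 2.13 CPM in WT replicates 1 to 3 and 28.1, 26.9 and 28.7 CPM in Nfkb2-/- replicates 1 to 3. The WT libraries differed among themselves more than for Ltb. WT replicate 3, where macrophage markers were lowest, was lowest for 6 of the 10 ligands, Tnf among them. The summed level of 8 mature dendritic cell markers was highest there, at 17654 CPM, and between 9119 and 12062 CPM in the other libraries. The part of macrophages or of maturation in this difference was not tested. Tnf averaged 7.41 ± 5.41 CPM (SD, n = 3) in WT and 27.9 ± 0.932 CPM (SD, n = 3) in Nfkb2-/- BMDCs, a ratio of 3.76. The log2 fold change was 1.91 (SE 0.55, adjusted p = 0.143), and 1.48 without WT replicate 3 (adjusted p = 0.0618). Tnf and Lta passed the test without WT replicate 2 (adjusted p = 0.0395 and 0.0341), where 5.87% of all genes were called, and under DESeq2 (adjusted p = 0.007 and 4.6e-05), where 8.6% were.

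In bulk RNA, more cells of a type and more RNA per cell cannot be told apart. T cells also express Lta and Ltb. The 7 T cell markers summed to 0.769 to 1.71 CPM in WT libraries and to 7.71, 1.85 and 1.23 CPM in Nfkb2-/- replicates 1, 2 and 3. Of the 6 that were tested, all had log2 fold changes above 0, the direction of Lta and Ltb, with a median of 1.73, and none was called or had an unadjusted p-value under 0.05 in edgeR. The Nfkb2-/- values were above all WT values for 2 of the 6, against 12.7% of all genes tested. These 2 were Cd3g and Cd8b1, named after their values were seen. Counts of Cd3g were 4, 4 and 4 in WT and 25, 10 and 11 in Nfkb2-/- libraries. Those of Cd8b1 were 1, 4 and 0 in WT and 36, 4 and 8 in Nfkb2-/- libraries, so that its gap rests on 4 against 4 counts. Cd3e had 1, 0 and 8 counts in WT and 40, 17 and 5 in Nfkb2-/- libraries. These genes reached the summed count needed for testing only through the Nfkb2-/- libraries, so that their direction was partly fixed by that filter. Of the 7, Cd3e was at 0 in WT replicate 2, Cd8b1 in WT replicate 3, Cd4 in Nfkb2-/- replicate 2 and Cd3d in Nfkb2-/- replicate 3. B cell markers summed to 3.79 to 24.9 CPM in WT and 12.3 to 16.2 CPM in Nfkb2-/- libraries, most of it Ighm. Among NK and innate lymphoid markers Il7r, which was at 194 to 529 CPM, gave nearly all of the sum, and Ncr1 was at 0 in 5 of 6 libraries. The T cell sum was highest in Nfkb2-/- replicate 1, and without that library the log2 fold changes of Tnf, Lta and Ltb were 1.90, 4.22 and 2.25. The part of T cells in the Lta and Ltb values was not tested.

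Within 60 kb of the start of Tnf 14 genes were tested. Of the 11 genes other than the 3 ligands none was called by edgeR, and DESeq2 called 1, Aif1, against 8.6% of all genes tested. The unadjusted p-value was under 0.05 in 3 of the 11 and in 3730 of the 21849 genes tested. Log2 fold changes of the 11 ran from -0.34 to 1.85 with a median of 0.161. In every Nfkb2-/- library 3 were higher and 1 lower than in any WT library, against 12.7% and 12% of all genes tested. Those higher were Aif1, Gm17705 and Gm16181, and the lower was Bag6, of which all but Aif1 were chosen after their values were seen. Lst1, the next tested gene beyond Ltb, measured 3.75, 5.14 and 2.27 CPM in WT and 2.92, 2.93 and 2.94 CPM in Nfkb2-/- libraries, which overlap. Aif1, a gene of the macrophage lineage, measured 5.38, 7.45 and 4.03 CPM in WT and 14.0, 13.0 and 15.6 CPM in Nfkb2-/- libraries (log2 fold change 1.34, SE 0.25, adjusted p = 0.0571).

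**Figure D2:**
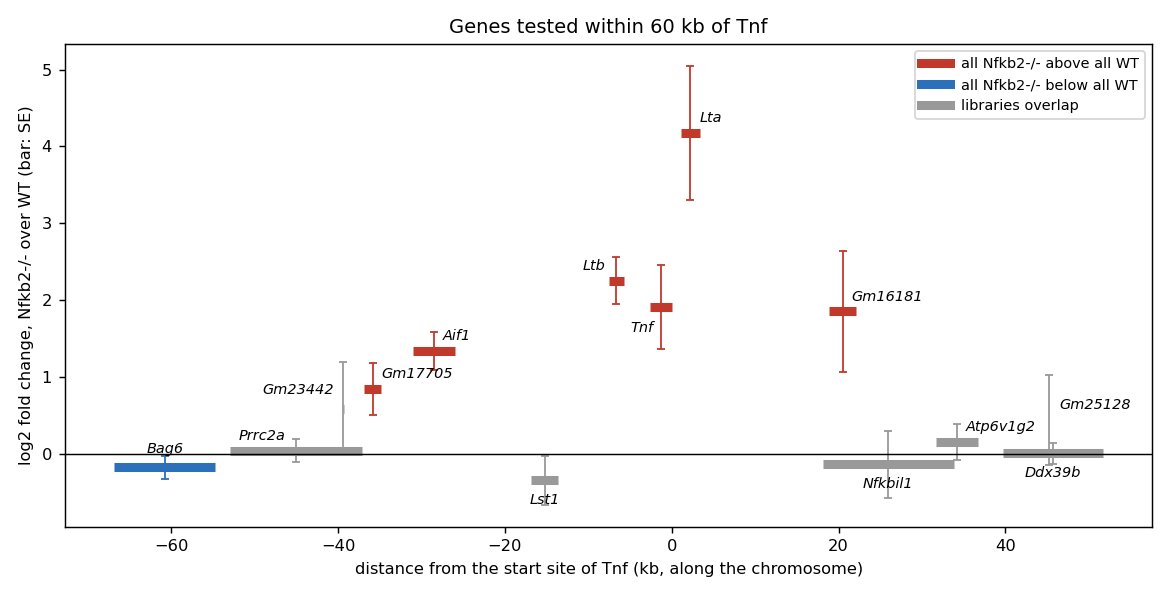
The plot places each tested gene near Tnf at its distance from the Tnf start site (kb) on the horizontal axis and at its log2 fold change, Nfkb2-/- over WT, on the vertical axis, with a bar for the standard error. Ltb, Tnf and Lta, at 2.25, 1.91 and 4.17, lie above the other 11 genes, which reach at most 1.85, and colour shows whether the libraries of the genotypes overlapped.

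The ligands Tnfsf4, Tnfsf9 and Tnfsf14 act on activated T cells as costimulators. Tnfsf4 (ENSMUSG00000026700, chr1:161395409-161418410, plus strand) encodes OX40L, the ligand of OX40. It measured 139, 117 and 197 CPM in WT replicates 1 to 3 and 53.7, 90.4 and 77.2 CPM in Nfkb2-/- replicates 1 to 3. Every Nfkb2-/- library was below every WT library. Tnfsf4 averaged 151 ± 41.0 CPM (SD, n = 3) in WT and 73.8 ± 18.6 CPM (SD, n = 3) in Nfkb2-/- BMDCs, so that the WT mean was 2.05 times the Nfkb2-/- mean. The log2 fold change of -1.03 (standard error 0.26) did not pass the test (adjusted p = 0.115), but did under DESeq2 (adjusted p = 0.0091). The highest value was that of WT replicate 3. Without it the log2 fold change was -0.79 (adjusted p = 0.178).

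Tnfsf9 (ENSMUSG00000035678, chr17:57105325-57107757, plus strand) encodes the ligand of CD137. It measured 1.83, 2.22 and 1.89 CPM in WT and 1.74, 1.25 and 2.54 CPM in Nfkb2-/- libraries. The genotypes overlapped, with both the lowest and the highest value in Nfkb2-/- BMDCs (log2 fold change -0.09, SE 0.34, adjusted p = 0.914). An antisense lincRNA, Gm11110, shares 192 exonic bases with Tnfsf9, and without strand their reads cannot be told apart.

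Tnfsf14 (ENSMUSG00000005824, chr17:57189492-57194177, minus strand) encodes LIGHT, which binds the herpesvirus entry mediator and the lymphotoxin β receptor. It was near the lower end of what was tested, with 10 to 62 counts per library. Its values were 0.973, 1.91 and 0.344 CPM in WT and 1.27, 0.396 and 0.599 CPM in Nfkb2-/- libraries, spread as widely within a genotype as between them. The log2 fold change was -0.51 with a standard error of 0.73 (adjusted p = 0.759).

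Tnfsf13b and Tnfsf13 encode BAFF and APRIL, the survival factors of B cells and plasma cells. Tnfsf13b (ENSMUSG00000031497, chr8:10006467-10039072, plus strand) measured 3.23, 5.29 and 1.72 CPM in WT and 3.96, 2.93 and 3.87 CPM in Nfkb2-/- libraries. All 3 Nfkb2-/- values lay between the lowest and the highest WT value (log2 fold change 0.07, SE 0.40, adjusted p = 0.945). Tnfsf13 (ENSMUSG00000089669, chr11:69682846-69685784, minus strand) measured 0.712, 1.14 and 0.792 CPM in WT and 1.80, 0.593 and 1.03 CPM in Nfkb2-/- libraries. Nfkb2-/- replicate 1 was highest and replicate 2 lowest, so that the genotypes overlapped (log2 fold change 0.38, SE 0.52, adjusted p = 0.752).

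Tnfsf12 (ENSMUSG00000097328, chr11:69686250-69695849, minus strand) encodes TWEAK, a ligand that acts on tissue cells, and lies 465 bases from Tnfsf13. It measured 21.7, 18.3 and 13.1 CPM in WT and 23.3, 19.6 and 17.2 CPM in Nfkb2-/- libraries, which overlapped (log2 fold change 0.18, SE 0.23, adjusted p = 0.723). The read-through gene Tnfsfm13 shares 731 exonic bases with Tnfsf12 and 983 with Tnfsf13. It received 13 to 30 counts per library. The values of both genes are uncertain to the extent that counting split reads among the 3 or left shared reads out. The antisense gene Tnfsf13os shares a further 221 bases with Tnfsf13.

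Tnfsf10 (ENSMUSG00000039304, chr3:27317028-27342427, plus strand) encodes TRAIL, which can trigger apoptosis through death receptors. It measured 2.25, 2.86 and 0.826 CPM in WT and 4.40, 8.31 and 3.59 CPM in Nfkb2-/- libraries. The genotypes did not overlap, with Nfkb2-/- replicate 2 highest and WT replicate 3 lowest. Tnfsf10 averaged 1.98 ± 1.04 CPM (SD, n = 3) in WT and 5.43 ± 2.52 CPM (SD, n = 3) in Nfkb2-/- BMDCs, and the log2 fold change of 1.45 did not pass the test (SE 0.50, adjusted p = 0.206).

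**Figure D3:**
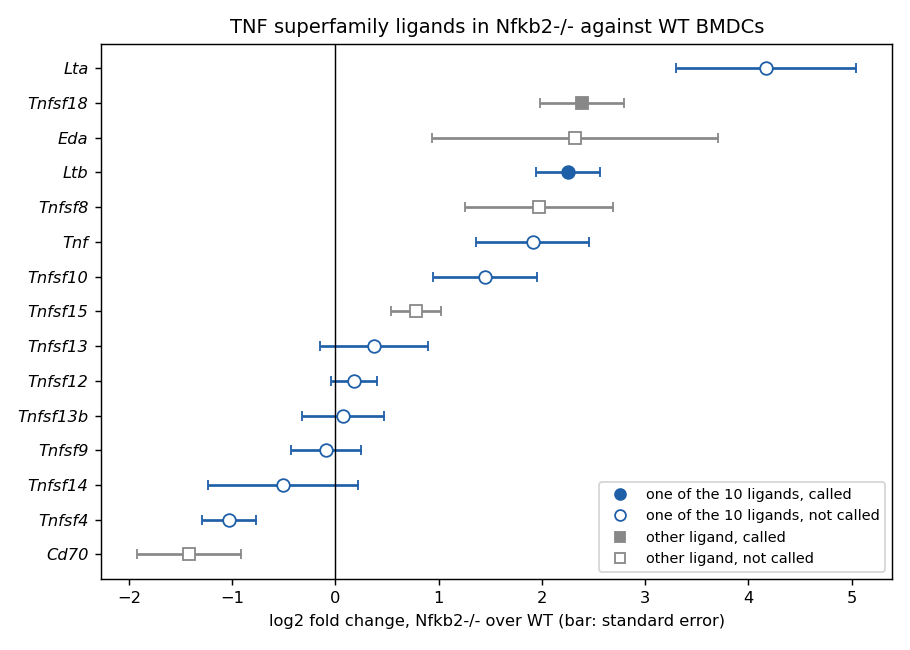
The plot gives the log2 fold change, Nfkb2-/- over WT, on the horizontal axis with its standard error as a bar, for the 10 ligands (circles) and the 5 other family ligands that were tested (squares). Filled symbols mark the 2 genes that passed the test, Ltb at 2.25 and Tnfsf18 at 2.39, while Lta lies furthest right at 4.17 with a standard error of 0.87.

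To compare ligands with each other, counts were divided by exonic length and scaled to a common total (TPM). The levels and ranks of Tnfsf12 and Tnfsf13 are uncertain because of the exonic bases shared with Tnfsfm13, given above. In WT BMDCs Tnfsf4 was the most abundant ligand mRNA at 271 ± 40.3 TPM (SD, n = 3), followed by Tnfsf12 at 39.9 ± 12.8 TPM (SD, n = 3) and Tnf at 16.1 ± 12.7 TPM (SD, n = 3). Next came Tnfsf9 at 5.202 TPM and Ltb at 2.22 TPM. Tnfsf14, Tnfsf13, Tnfsf13b and Tnfsf10 were between 1.32 and 2.07 TPM, and Lta was last at 0.610 TPM. The ranges over the 3 libraries were apart only between Tnfsf4 and Tnfsf12 and between Tnfsf9 and Ltb. The other neighbours in this order did not differ beyond their spread.

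In Nfkb2-/- BMDCs Tnfsf4 was again the most abundant, at 133 ± 27.2 TPM (SD, n = 3). Tnf came next at 57.0 ± 4.21 TPM (SD, n = 3) and overlapped Tnfsf12 at 44.6 ± 9.47 TPM (SD, n = 3). Lta at 10.4 ± 0.219 TPM (SD, n = 3) and Ltb at 10.3 ± 0.569 TPM (SD, n = 3) were at the same level. They stood above Tnfsf9 at 4.79 TPM, and the other 4 ligands were between 1.40 and 3.43 TPM. Apart from their neighbours in range were Tnfsf4 from Tnf, Tnfsf12 from Lta, and Ltb from Tnfsf9. Lta thus ranked 10th of the ligands in WT and 4th in Nfkb2-/- BMDCs.

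**Figure D4:**
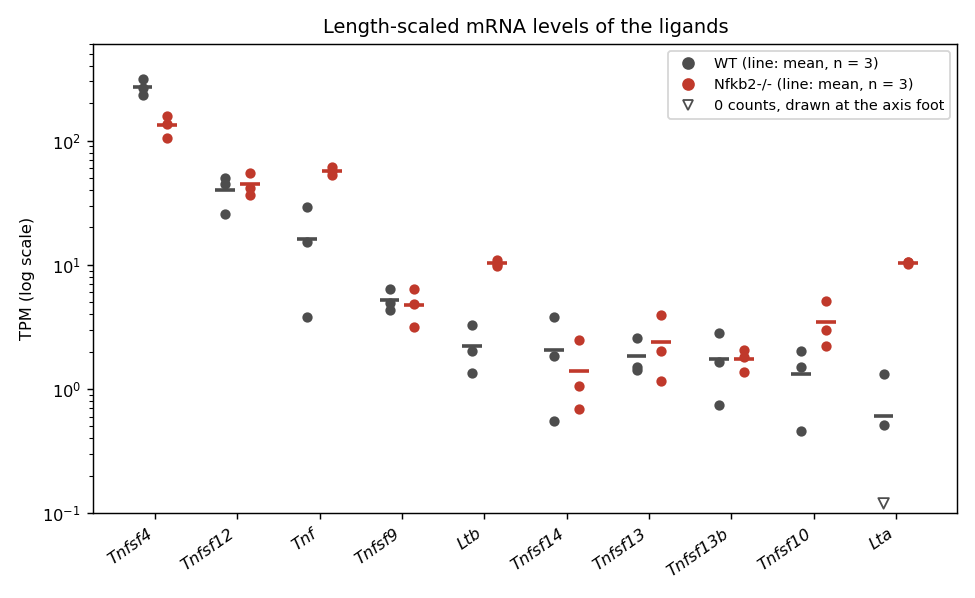
The plot shows the level of each ligand mRNA in TPM on a log axis, ordered by the WT mean, with a point per library and a line at the mean of WT (grey) and Nfkb2-/- (red) BMDCs; WT replicate 1, with 0 counts of Lta, is an open triangle at the foot of the axis. Tnfsf4 leads in both genotypes, at 271 and 133 TPM, and the Nfkb2-/- libraries of Lta and Ltb meet near 10.4 and 10.3 TPM.

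Of the 8 other ligands of the family that were listed, 5 were tested, since Cd40lg, Fasl and Tnfsf11 had too few counts. Tnfsf18, which encodes the ligand of GITR, a costimulatory receptor of T cells, was the 1 called by edgeR, against 1.14% of all genes tested. DESeq2 called Tnfsf8 as well, and 8.6% of all genes. Tnfsf18 measured 0.830, 0.585 and 1.45 CPM in WT and 3.90, 6.76 and 4.34 CPM in Nfkb2-/- libraries. All Nfkb2-/- values were above all WT values (log2 fold change 2.39, SE 0.41, adjusted p = 0.0489). The gene lies 76.2 kb from Tnfsf4, whose log2 fold change was -1.03, on chromosome 1. The call was lost with RLE size factors (adjusted p = 0.0504), with the replicate number as a block (adjusted p = 0.0848) and without WT replicate 1 or any 1 Nfkb2-/- replicate (adjusted p = 0.09 to 0.225).

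Tnfsf8, which encodes the ligand of CD30, measured 15.2, 49.1 and 4.92 CPM in WT and 67.9, 100.5 and 102.9 CPM in Nfkb2-/- libraries. Its WT libraries spread widely and, as for Tnf, WT replicate 2 was highest and replicate 3 lowest (log2 fold change 1.97, SE 0.72, adjusted p = 0.222). Its log2 fold change was 3.16 without WT replicate 2 (adjusted p = 0.0263), and DESeq2 gave an adjusted p of 0.0276. Tnfsf15, which encodes TL1A, measured 11.5, 6.65 and 10.0 CPM in WT and 15.4, 18.9 and 14.0 CPM in Nfkb2-/- libraries (log2 fold change 0.78, adjusted p = 0.17). Cd70, whose product binds CD27, lies 38.2 kb from Tnfsf9 and 39.7 kb from Tnfsf14. It was below WT in every Nfkb2-/- library, with 1.21, 1.38 and 1.41 CPM in WT and 0.739, 0.264 and 0.486 CPM in Nfkb2-/- libraries (log2 fold change -1.42, adjusted p = 0.21). The median log2 fold change of the 5 was 1.97, against 0.076 over all genes tested. The 5 include Eda, with 4, 5 and 0 counts in WT and 35, 6 and 4 counts in Nfkb2-/- libraries (log2 fold change 2.32, SE 1.39). Eda reached the summed count needed for testing only through the Nfkb2-/- libraries, so that its direction was partly fixed by that filter.

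Of the 12 receptors of these ligands 11 were tested and none was called by edgeR. The unadjusted p-value was under 0.05 in 4 of the 11 and in 3730 of the 21849 genes tested. DESeq2 called Tnfrsf1b, Tnfrsf9 and Tnfrsf13b, and 8.6% of all genes. Without overlap between the genotypes 4 receptors were higher and 2 lower in Nfkb2-/- BMDCs, against 12.7% and 12% of all genes tested. Among the 4 higher was Tnfrsf13c, named after its values were seen. It had 2, 10 and 0 counts in WT and 32, 12 and 18 counts in Nfkb2-/- libraries. Tnfrsf13c reached the summed count needed for testing only through the Nfkb2-/- libraries, so that its direction was partly fixed by that filter. The median log2 fold change of the 11 was 0.165. Tnfrsf1b, the TNF receptor that also takes part in costimulation, measured 629, 399 and 471 CPM in WT and 222, 237 and 231 CPM in Nfkb2-/- libraries. Of the 11 receptors it had the lowest adjusted p (log2 fold change -1.12, SE 0.20, adjusted p = 0.0522). Tnfrsf1a, the death domain receptor of TNF, measured 41.4, 45.7 and 19.7 CPM in WT and 34.7, 39.2 and 42.0 CPM in Nfkb2-/- libraries, which overlapped.

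Ltbr, the receptor of the lymphotoxin heterotrimer and of LIGHT, measured 27.4, 25.3 and 23.4 CPM in WT and 21.2, 20.1 and 21.9 CPM in Nfkb2-/- libraries. The gap was narrow (log2 fold change -0.27, adjusted p = 0.397). Tnfrsf9, which encodes CD137, measured 113, 139 and 210 CPM in WT and 306, 289 and 260 CPM in Nfkb2-/- libraries (log2 fold change 0.89, adjusted p = 0.128). The values of its ligand gene Tnfsf9, given above, overlapped between the genotypes. Tnfrsf13b, which encodes the BAFF and APRIL receptor TACI, measured 30.9, 52.4 and 18.2 CPM in WT and 72.0, 78.3 and 80.7 CPM in Nfkb2-/- libraries (log2 fold change 1.19, adjusted p = 0.151). Tnfrsf10b, the mouse TRAIL receptor, was between 8.18 and 12.4 CPM in all 6 libraries.

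No gene for the steps between ligand mRNA and signal was called by edgeR. Over these lists of 8, 9 and 16 genes DESeq2 called 3, Rel, Traf1 and Traf6, against 8.6% of all genes tested. Among 8 genes for ligand shedding and processing, Sppl2a, Adam10, Furin and Adam17 were the most abundant. Adam17, which encodes the enzyme that sheds TNF from the membrane, measured 101, 113 and 98.3 CPM in WT and 83.5, 115 and 106 CPM in Nfkb2-/- libraries. Furin, which encodes a convertase that cleaves several of the ligands, was the 1 gene of the list without overlap, at 107, 133 and 118 CPM in WT and 172, 137 and 155 CPM in Nfkb2-/- libraries (adjusted p = 0.284). The median log2 fold change of the 8 was 0.0022, and 1 of them, Furin, had an unadjusted p-value under 0.05. Of all 21849 genes tested 24.7% were without overlap, and 3730 had an unadjusted p-value under 0.05.

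Of 9 genes for proteins that bind or stabilise cytokine mRNAs, Zfp36l1 was the most abundant. Lower in every Nfkb2-/- library were 2 of the 9, against 12% of all genes tested. These 2 were Khsrp and Zfp36, named after their values were seen. Zfp36, whose product tristetraprolin binds the Tnf mRNA and hastens its decay, measured 250, 201 and 317 CPM in WT and 143, 176 and 176 CPM in Nfkb2-/- libraries (log2 fold change -0.63, SE 0.20, adjusted p = 0.18). It was the 1 gene of the 9 with an unadjusted p-value under 0.05, against 3730 of the 21849 genes tested.

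Of 16 adaptors, kinases and NF-κB subunits downstream of the receptors, all were tested. Their log2 fold changes were below 0 for 13, with a median of -0.446, against 0.076 over all genes tested. With total counts in place of TMM they were below 0 for 11 of the 16. In 6 the Nfkb2-/- values were all below the WT values and in none all above, against 12% and 12.7% of all genes tested. The unadjusted p-value was under 0.05 in 6 of the 16 and in 3730 of the 21849 genes tested. Rel, which encodes the subunit c-Rel, was the most abundant at 2090, 1720 and 2394 CPM in WT and 1466, 1426 and 1345 CPM in Nfkb2-/- libraries (log2 fold change -0.55, adjusted p = 0.203). Traf6, a ubiquitin ligase, and Traf1, an adaptor of TNF receptor complexes, did not overlap either (log2 fold change -0.49 with adjusted p = 0.161, and -0.92 with adjusted p = 0.125). Map3k14, which encodes the noncanonical pathway kinase NIK, measured 333, 202 and 508 CPM in WT and 256, 225 and 222 CPM in Nfkb2-/- libraries, which overlapped. Of 8 genes that mark mature dendritic cells, 3 were lower and 2 higher without overlap, against 12% and 12.7% of all genes tested. The log2 fold change was below 0 for 5 of the 8 and above 0 for 3, with a median of -0.626. Fscn1 and Cd83 were among the 3 lower (log2 fold change -1.49 with adjusted p = 0.0903, and -1.12 with adjusted p = 0.15). Of the 8, edgeR called only Ccl17, at 161 to 432 CPM in WT and 2357 to 2472 CPM in Nfkb2-/- libraries (log2 fold change 2.92, SE 0.37, adjusted p = 0.0307). The part of maturation in the ligand values was not tested.

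**Figure D5:**
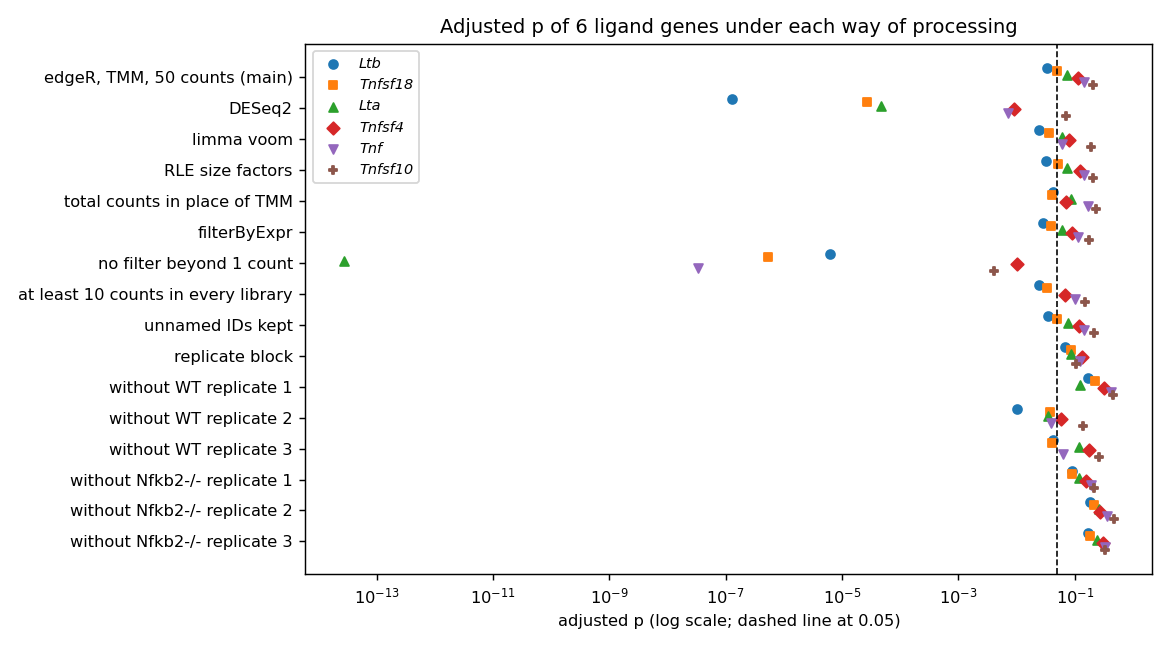
The plot gives the adjusted p (log axis) of the 5 ligands without overlap and of Tnfsf18 under each way of processing the counts, with a dashed line at 0.05. Ltb was left of the line in the main test and 10 of 15 alternatives, and all 6 genes were right of it without WT replicate 1 and without Nfkb2-/- replicate 1, 2 or 3.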

How the data were processed

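RNA-seq libraries of unstimulated WT and Nfkb2-/- BMDCs, 3 per genotype, were grouped by the sample labels. The authors deposited raw read counts per Ensembl gene. The submitters' processing notes name HISAT2 and the builds GRCm38 and mm10. The counting tool, its annotation and its use of strand are not given in the sources used here. A deposited table joining the 6 libraries holds the same counts. Gene names, positions and exonic lengths came from GENCODE M21 (GRCm38), which names 52073 of the 56748 IDs. The 2147 IDs that begin with ENSMUSG00002 have no name there, so that the counting annotation may differ from it. Unnamed IDs, with 1.01% to 1.75% of counts, were left out.

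Genes whose counts summed to at least 50 were tested with edgeR 4.0.16 (R 4.3.3) by TMM and its quasi-likelihood test, without covariates and with Benjamini-Hochberg adjustment over 21849 genes. The common dispersion was 0.219. A standard error is the log2 fold change divided by the square root of F. A call needed an adjusted p under 0.05 and a fold change over 1.2. Alternatives were DESeq2 1.42.0, limma 3.58.1 (voom), RLE size factors, total counts, other filters, unnamed IDs kept, the replicate number as a block, and each library left out. The test was checked on simulated counts. Depth was 29863927 to 55623068 counts, and floors (3 counts) cover counting error only. SDs and standard errors include the spread between libraries.

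The members, gene lists and tests were chosen with earlier results of these data known. Named were all 10 ligands and up to 6 genes of each other list, first those called and then the most abundant. Genes named outside this rule are said to be chosen after their values were seen.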

Additional observations from a re-analysis of the deposited data

How the results depend on the processing

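The number of ligands called, 1 of 10, was 4 with DESeq2, 5 with no filter beyond 1 count and 0 with the replicate number as a block. Leaving out single libraries gave 0 to 3, with 3 without WT replicate 2 and 1 without WT replicate 3. Of 21849 genes tested, 248 (1.14%) were called in the main test, 1878 (8.6%) with DESeq2 and 488 (2.23%) with limma voom. With no filter 1625 of 46410 genes (3.5%) were called, and with filterByExpr 397 of 19238 (2.06%). With at least 10 counts in every library 459 of 16284 genes (2.82%) were called, and without WT replicate 2 1248 of 21275 (5.87%). By edgeR 0 were called with the block (3331 genes at an unadjusted p under 0.05). The number called was also 0 without WT replicate 1 or any 1 Nfkb2-/- replicate. Of the 49 other pathway genes tested, 1 was called, against 8 with DESeq2, 5 with no filter, 2 with limma voom, filterByExpr and at least 10 counts in every library, 0 with RLE size factors and with the block, and 0 to 5 on leaving out libraries. The causes were not tested. The number of ligands without overlap was 4 to 6 under the other normalizations and filters and on leaving out libraries, with 4 where Lta was filtered out. The share over all genes ran there from 11.9% with no filter to 45.2% without Nfkb2-/- replicate 1, where 5 of 10 ligands is close to that share.

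Same-numbered libraries of the genotypes had deviations that correlated at 0.152, 0.106 and -0.020, so that the numbers were not taken to pair them. Without a filter the median log2 fold change of all genes was 0.603 in place of 0.076. There the estimates of Tnfsf13b, Adam10 and Nfkb1 turned to -0.0113, -0.0133 and -0.0147, and with total counts that of Adam17 turned to 0.0309. On leaving out libraries, Tnfsf9 ranged from -0.39 to 0.10, Tnfsf13 from -0.10 to 0.64, Tnfsf13b from -0.24 to 0.53, Tnfsf14 from -1.10 to 0.19, Tnfrsf1a from -0.17 to 0.34, Tnfrsf10b from -0.0005 to 0.31, Adam10 from -0.12 to 0.18, Adam17 from -0.16 to 0.0748 and Nfkb1 from -0.0713 to 0.34. The directions of Tnf (1.48 to 2.57), Lta (3.53 to 5.30), Ltb (2.07 to 2.56), Tnfsf4 (-1.23 to -0.79), Tnfsf10 (0.97 to 1.79) and Tnfsf12 (0.0061 to 0.36) held. Ordering by longest transcript kept 14 of 20 ranks. Depth limits Lta, with 0 to 16 counts in WT libraries, and Tnfsf14, with 10 to 62 counts per library.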
